A study of Homo sapiens with 6 samples.

Results

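The genes described here encode the receptors through which ligands of the tumour necrosis factor family can kill a cell, the proteins those receptors recruit, the TRAIL ligand and the inhibitor CFLAR. They were chosen by name: every probe set whose symbol in the platform's probe table is one of 10 genes (TNFSF10, TNFRSF10A, TNFRSF10B, FAS, TNFRSF1A, TNFRSF12A, FADD, TRADD, RIPK1 and CFLAR). The table names 27 such probe sets of the 22283 on the array, for 8 of the 10 genes. It names 0 probe sets for TNFRSF10A, a TRAIL receptor, and for RIPK1, the kinase of the TNF receptor complex, so neither was analysed here. CFLAR has 11 of the 27 probe sets, FAS 4, TNFRSF10B, TNFSF10 and TRADD 3 each, and FADD, TNFRSF1A and TNFRSF12A 1 each.

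A death receptor carries a death domain in its cytoplasmic tail. When TRAIL (TNFSF10) binds TNFRSF10B, or FAS ligand binds FAS, the tail recruits the adaptor FADD, which brings initiator caspases into the complex. The receptor TNFRSF1A recruits TRADD and RIPK1 first and signals mostly to NF-kB, and CFLAR resembles an initiator caspase without its activity and holds the complex in check. Hs578T is an established human breast cancer line of mesenchymal character, and the line used here carries an inducible HOXA5, a homeobox transcription factor. The title of the series names the targets of that factor as the question, and earlier work on such cells linked HOXA5 induction to cell death that runs through caspases.

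RNA was taken from the HOXA5-inducible cells before induction (0 h) and after 6 h and 9 h of induction, in each of 2 experiments, described by the labels as batches of RNA, so each of the 3 groups holds 2 arrays. The 0 h arrays are uninduced cells of the same line, and, since the samples used here include 0 uninduced arrays of the later times, HOXA5, the inducing agent, which the sources used here do not name, and time in culture cannot be told apart. The labels give no separate cultures beyond the experiments, so p-values measure the spread between these 6 arrays, and the number of arrays limits their precision. HOXA5 itself is named by 0 probe sets of the table.

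Deposited intensities were not on one scale: the array medians ran from 18.7 (6 h, experiment 1) to 95.7 (0 h, experiment 1), so all values below are quantile-normalised intensities and changes are relative to the whole array. In unscaled values the median change of all tested probe sets was -1.34 at 6 h and -0.56 at 9 h on the log2 scale. A floor of 12.7 intensity units, the 25th percentile, marks what was read as dim. The ratio of 3' to 5' ACTB signal was 1.82 on the 9 h array of experiment 1, against 0.918 to 1.09 on the other arrays, and its part in the results was not tested. Of 12 mesenchymal markers 10 lay above the floor on all 6 arrays, with a summed intensity of 19396 to 20186 at 6 h and 18574 to 19161 at 9 h, against 22342 to 22687 at 0 h. Of 10 luminal epithelial markers 5 lay above the floor on all arrays and 4 (EPCAM, KRT19, CLDN4 and CLDN7) at it on all. Of 7 leukocyte markers with a probe set 3 lay above it on all arrays and 1 (LYZ) at it, and of 5 endothelial markers 1 lay above and 1 (CDH5) at it. The summed luminal list was 1126 to 3891 over the arrays, the leukocyte list 639 to 1221 and the endothelial list 67 to 78.

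No death receptor or adaptor gene passed the test at either time. TNFRSF10B lay above its 0 h level at 6 h in all 3 of its probe sets and in both experiments (in 0 of 3 in unscaled values). At 9 h its 3 probe sets stood at 2.01-fold, 1.41-fold and 1.03-fold the 0 h level. The first of them is the brightest (log2 change 1.01, or 0.39 unscaled), and it was the 1 of 3 that lay higher at 9 h in unscaled values. CFLAR lay above its 0 h level in all 11 probe sets at both times, but in unscaled values in 1 of them at 6 h and 3 at 9 h. At 9 h FAS stood below its 0 h value in experiment 2 and above it in experiment 1. The arrays of the 2 experiments did not overlap, with experiment 2 higher, in 2 of 24 tested probe sets (9.80% over all). These were TNFRSF12A and 210405_x_at of TNFRSF10B. With experiment 2 lower there were 2 (9.31% over all), TNFRSF1A and 204780_s_at of FAS. Both counts are near the share over all. TNFSF10, the ligand, lay at or near the floor on all arrays but 1, the 6 h array of experiment 2. In RNA of a whole culture, fewer cells that express a gene and less RNA per cell cannot be told apart.

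Of the 27 probe sets 24 lay above the floor on at least 2 arrays and were tested. By limma, adjusted over all 18360 tested probe sets, 0 of the 24 passed at 6 h, 9 h or between these times, beside 0% of all probe sets. The lowest adjusted p among them was 0.969 at 6 h, 0.559 at 9 h and 0.932 for 9 h against 6 h. A fit that holds the experiment as a term called 0 of the 24 either, where 0% passed over all at 6 h and 0.359% at 9 h, and the lowest adjusted p was 0.0995 (TNFRSF10B at 9 h). At an unadjusted limma p under 0.05 there were 3 of 24 at 6 h, against 4.77% of all probe sets, 1 at 9 h, against 7.41%, and 2 for 9 h against 6 h, against 5.27%. With the experiment as a term these counts were 5 (9.70% over all), 4 (13.9%) and 1 (9.24%). The 3 at 6 h without that term were 209294_x_at of TNFRSF10B and 214618_at of CFLAR, both higher, and 1729_at of TRADD, lower. The last 2 named each include an array set to the floor.

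The arrays of the 2 groups did not overlap, with 6 h above 0 h, in 9 of the 24 probe sets, where 16.1% of all tested probe sets did so. Of these 9, 7 belong to CFLAR and 2 to TNFRSF10B, and the CFLAR probe sets share 1 target gene, so they are not separate observations. With 6 h below 0 h there was 1 (TRADD, 16.2% over all). At 9 h 5 lay wholly above 0 h (18.3% over all), 4 of CFLAR and 1 of TNFRSF10B, and 2 lay wholly below (TNFSF10 and TRADD, 19.1% over all), the first a share near the background and the second under it. Between 9 h and 6 h there were 1 wholly above (14.9% over all) and 6 wholly below (15.1% over all). These counts turn with the scaling: in unscaled values 0 lay wholly above and 16 wholly below at 6 h, 0 and 5 at 9 h, and 10 and 0 for 9 h against 6 h. Both experiments lay above their own 0 h value in 13 of the 24 at 6 h (25.3% over all) and in 9 at 9 h (26.9%), and below it in 1 (25.8%) and 3 (28.9%). From 6 h to 9 h both were higher in 3 (27.1%) and lower in 9 (25.9%). Taking the brightest tested probe set of each gene, 7 of the 8 genes lay higher at 6 h than at 0 h, with a median log2 change of 0.47. Among 10444 genes 51.1% were higher, with a median of 0.012. Of the 8, 3 were higher in both experiments (26.9% of all genes) and 0 lower in both (24.96%). TRADD, 1 of the 7, was at 0.013, and in unscaled values each of the 8 lay lower at 6 h. At 9 h 4 were higher and 4 lower, with a median of 0.019, against 48.7% higher and a median of -0.020. At that time 3 were higher in both experiments (28.0% of all genes) and 2 lower in both (29.5%). In unscaled values 2 of the 24 probe sets lay higher at 6 h and 5 at 9 h, in place of 19 and 16.

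**Figure D1:**
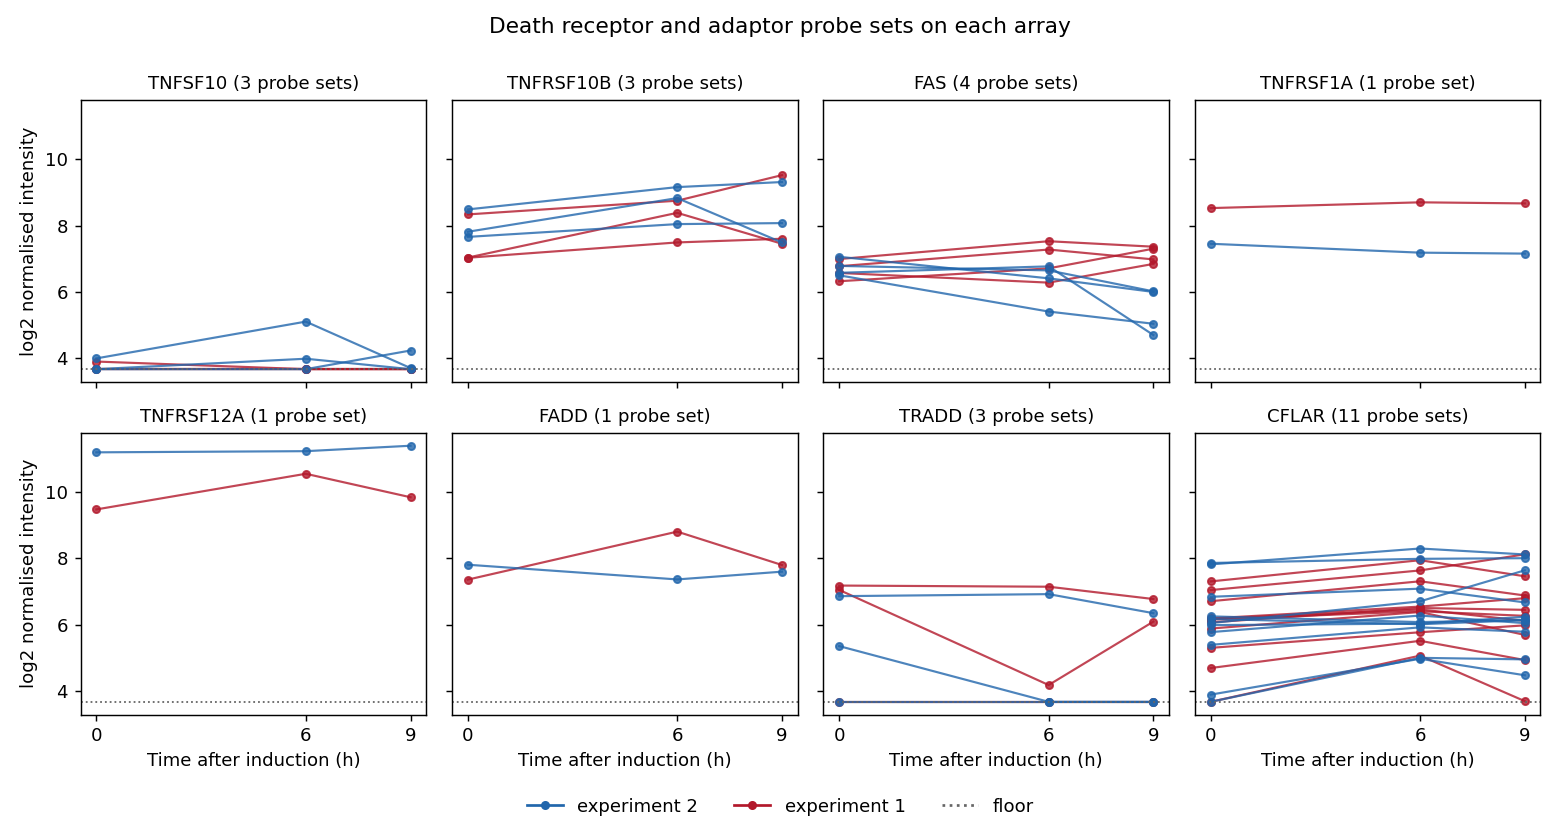
Log2 normalised intensity of all 27 probe sets by time after induction (0, 6 and 9 h), 1 panel per gene, with a line per probe set and experiment and a dotted line at the floor. TNFSF10 lies near the floor but for 1 point at 6 h, TNFRSF1A and TNFRSF12A are parted by experiment, and the FAS lines of experiment 2 end below those of experiment 1 at 9 h.

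Sequence before the start of transcription is shown for 3 genes that behaved differently on the arrays: CFLAR, whose probe sets lay above 0 h at both times, TNFRSF1A, which split by experiment, and TNFSF10, which was near the floor. Each is the 250 bases upstream of the first start that RefSeq lists for the gene (GRCh38.p14), read 5′ to 3′ on the gene's strand. The windows are chr2:201118466-201118715 on the plus strand, chr12:6342077-6342326 on the minus strand and chr3:172523431-172523680 on the minus strand. Capitals mark matches, on either strand, to TAAT (the core that homeobox proteins bind), TGANTCA (AP-1) or GGGNNNNNCC (the frame of NF-kB sites), and overlapping matches run together.
CFLAR: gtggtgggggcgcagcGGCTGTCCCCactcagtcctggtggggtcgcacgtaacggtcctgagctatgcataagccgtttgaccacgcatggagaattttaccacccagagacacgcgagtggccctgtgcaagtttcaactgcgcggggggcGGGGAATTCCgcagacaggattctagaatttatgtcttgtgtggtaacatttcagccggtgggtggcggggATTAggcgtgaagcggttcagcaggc
TNFRSF1A: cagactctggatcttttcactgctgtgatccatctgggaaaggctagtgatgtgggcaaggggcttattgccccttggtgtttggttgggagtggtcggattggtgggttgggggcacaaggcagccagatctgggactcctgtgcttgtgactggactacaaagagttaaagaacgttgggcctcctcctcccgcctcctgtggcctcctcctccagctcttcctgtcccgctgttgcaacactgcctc
TNFSF10: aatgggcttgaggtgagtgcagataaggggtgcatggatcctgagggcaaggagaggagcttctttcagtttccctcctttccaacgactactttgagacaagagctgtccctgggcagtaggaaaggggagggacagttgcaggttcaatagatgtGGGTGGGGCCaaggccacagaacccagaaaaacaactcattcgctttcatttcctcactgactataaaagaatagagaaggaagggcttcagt
The CFLAR window holds 1 match to TAAT, as ATTA on the other strand, 0 to TGANTCA and 2 to GGGNNNNNCC, the TNFSF10 window 0, 0 and 1, and the TNFRSF1A window 0 of each. Among 35114 upstream windows of the same length, 47.4% hold TAAT, 6.57% TGANTCA and 54.4% GGGNNNNNCC. The first FAS window holds 0, 1 and 2 matches and that of FADD 0 of each. A match here is a run of letters and says nothing of binding, and these windows were picked with the values known.

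The TRAIL ligand TNFSF10 was read by 3 probe sets. On 202687_s_at the normalised intensity at 0, 6 and 9 h was 15.95, 34.4 and 13.0 in experiment 2, and 14.9, 12.4 and 12.4 in experiment 1. The 6 h array of experiment 2 was thus the only one well clear of the floor. The log2 change was 0.44 ± 0.48 at 6 h (standard error, n = 2 arrays per group, limma adjusted p = 0.969) and -0.26 ± 0.48 at 9 h (adjusted p = 0.944), and without experiment 2's 6 h array the first became -0.28. Probe sets 202688_at and 214329_x_at were each above the floor on 1 array, at 15.8 (6 h, experiment 2) and 18.8 (9 h, experiment 2), and were not tested.

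TNFRSF10B, a receptor for TRAIL with a death domain, read higher at both induced times than at 0 h on its brightest probe set, without passing the test. Its brightest probe set, 209295_at, read 360, 574 and 638 at 0, 6 and 9 h in experiment 2, and 324, 432 and 737 in experiment 1. Both arrays at each induced time lay above both 0 h arrays, and both at 9 h above both at 6 h. The log2 change was 0.54 ± 0.26 at 6 h, with an interval of -0.071 to 1.16 (95%), and 1.01 ± 0.26 at 9 h, with 0.39 to 1.62. Without experiment 1's 9 h array, which had the highest ACTB ratio, the 9 h change was 0.90. By limma the adjusted p was 0.969 at 6 h and 0.559 at 9 h, and 0.481 and 0.0995 once the experiment was a term. Unscaled, the 2 differences were -1.08 and 0.39, where the median over all probe sets was -1.34 and -0.56.

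Of the other probe sets of TNFRSF10B, 209294_x_at followed another course, and 210405_x_at moved the same way as the brightest but by less (log2 change 0.42 at 6 h and 0.49 at 9 h). On 209294_x_at the values at 0, 6 and 9 h were 225, 456 and 180 in experiment 2, and 131, 335 and 175 in experiment 1. Both 6 h arrays stood above the arrays of the other times, and the 9 h arrays lay within the range of the 0 h arrays. Its log2 change was 1.18 ± 0.36 at 6 h, by 1.02 in experiment 2 and 1.35 in experiment 1, but 0.047 ± 0.36 at 9 h (limma adjusted p = 0.969 and 0.993). Without experiment 1's 0 h array the 9 h change was -0.34, and without experiment 2's it was 0.44. Between 9 h and 6 h the change was -1.14 ± 0.36 (adjusted p = 0.932), where 209295_at had 0.46 ± 0.26. On 210405_x_at the values were 203, 265 and 270 in experiment 2, and 131, 180 and 195 in experiment 1, so that each experiment lay above its own 0 h value while the groups overlapped. The names of these last 2 carry the suffix x, which the maker gives to probe sets that may also bind other transcripts.

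FAS, the receptor for FAS ligand, differed in direction between experiments at 9 h. Its brightest probe set, 204780_s_at, read 110, 100 and 64.9 at 0, 6 and 9 h in experiment 2, and 127, 185 and 165 in experiment 1. Within experiment 2 the 9 h value was the lowest, while within experiment 1 the 0 h value was. On 204781_s_at the values were 95.6, 109 and 26.0 in experiment 2, and 95.3, 77.8 and 115 in experiment 1. On 216252_x_at they were 134, 85.1 and 64.0 in experiment 2, and 110, 155 and 126 in experiment 1, and on 215719_x_at 90.7, 42.5 and 32.9 in experiment 2, and 80.1, 105 and 158 in experiment 1. In all 4 probe sets the 9 h array of experiment 2 was the lowest of the 6.

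At 9 h the log2 differences of the 4 FAS probe sets from 0 h ran from -1.88 to -0.77 within experiment 2 and from 0.21 to 0.98 within experiment 1. The fit over both gave -0.20 ± 0.54 for 204780_s_at, with an interval of -1.46 to 1.06 (limma adjusted p = 0.969), and -0.80 ± 0.69 for 204781_s_at (adjusted p = 0.851). Without experiment 2's 9 h array the brightest probe set was at 0.48 and without experiment 1's at -0.87, so that the negative sign rests on the 9 h array of experiment 2. At 6 h the 4 changes ran from -0.35 to 0.20, and that of 204780_s_at was -0.24 without experiment 1's 6 h array. The experiments had opposite signs on all 4 probe sets at 6 h too, with experiment 2 higher than its 0 h value on 204781_s_at (0.19, against -0.29 in experiment 1) and lower on the other 3.

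TNFRSF1A, the main receptor for TNF, split by experiment. Probe set 207643_s_at read 175, 146 and 143 at 0, 6 and 9 h in experiment 2, and 370, 417 and 408 in experiment 1. Each array of experiment 2 lay below each array of experiment 1, whatever the time. The log2 change was -0.047 ± 0.68 at 6 h, with an interval of -1.65 to 1.56, and -0.078 ± 0.68 at 9 h, with -1.69 to 1.53 (limma adjusted p = 1.0 and 0.995). These intervals span more than a 2-fold difference either way, but they come from the fit without the experiment as a term. The difference between experiments is thus part of their width. With the experiment as a term the limma adjusted p was 0.972 and 0.943. Within experiment 2 the changes were -0.27 and -0.30, and within experiment 1 0.17 and 0.14. At 6 h the fit gave 0.71 without experiment 2's 6 h array and 0.49 without experiment 1's 0 h array. At 9 h it gave 0.68 without experiment 2's 9 h array and 0.46 without experiment 1's 0 h array. These fits also lack a term for the experiment, so the difference between experiments enters these values.

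TNFRSF12A, the receptor for the TNF-like ligand TWEAK, has no death domain and is known as a gene that growth factors induce. It was the reverse of TNFRSF1A between experiments: 218368_s_at read 2351, 2409 and 2698 at 0, 6 and 9 h in experiment 2, and 712, 1501 and 919 in experiment 1. All arrays of experiment 2 were above all those of experiment 1. Within experiment 1 the 6 h array stood above the others, by 1.08 on the log2 scale over 0 h, while in experiment 2 the difference was 0.035. The fit gave 0.56 ± 0.67 at 6 h and 0.28 ± 0.67 at 9 h (limma adjusted p = 0.972 and 0.960). Without experiment 1's 0 h array these became -0.31 and -0.58, and without experiment 2's 9 h array the second was -0.49.

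The split between experiments was tested after the values were seen, with time as a term in the same fit of all probe sets. Each side is 1 experiment read at 3 times, so the p-values do not measure the spread between experiments. TNFRSF12A was 2.50-fold higher in experiment 2 than in experiment 1 (log2 difference 1.32 ± 0.21, limma adjusted p = 0.0141), higher in 3 of 3 times. TNFRSF1A was lower in experiment 2, with a log2 difference of -1.37 ± 0.21 (adjusted p = 0.0123), lower in 3 of 3 times. These were the 2 of 24 probe sets that passed, where 2.48% of all did. Leaving out any single array moved both out of the called range, with an adjusted p of 0.0932 to 0.336 for TNFRSF1A and 0.139 to 0.279 for TNFRSF12A, and unscaled values gave 1.0 for each, all with the same sign. The array titled as 6 h of experiment 2, whose labels also carry an RNA lot line naming experiment 1, read 2409 for TNFRSF12A and 146 for TNFRSF1A, both within the range of the other experiment 2 arrays. Both genes were picked because the experiments, as titled, parted on them, so these values cannot tell which label holds. The experiments did not overlap, with experiment 2 lower, in 2 of the 24 (9.31% over all), TNFRSF1A and 204780_s_at of FAS, and with experiment 2 higher in 2 (9.80% over all), TNFRSF12A and 210405_x_at of TNFRSF10B. The FAS and TNFRSF10B probe sets did not pass (limma adjusted p = 0.175 and 0.189).

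FADD, the adaptor that links FAS and the TRAIL receptors to initiator caspases, was read by 202535_at. Its values at 0, 6 and 9 h were 224, 165 and 194 in experiment 2, and 164, 448 and 223 in experiment 1. The 6 h array of experiment 1 was the highest of the 6, while in experiment 2 the 6 h array was the lowest of its 3. The log2 change was 0.50 ± 0.48 at 6 h (-0.44 in experiment 2 and 1.45 in experiment 1) and 0.12 ± 0.48 at 9 h (limma adjusted p = 0.969 and 0.985). Without experiment 1's 6 h array the first was -0.22, and without experiment 1's 0 h array the second was -0.11.

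TRADD, the adaptor of TNFRSF1A, gave different answers on its probe sets. On the brightest, 205641_s_at, the values at 0, 6 and 9 h were 116, 121 and 81.3 in experiment 2, and 145, 141 and 109 in experiment 1. Both 9 h arrays lay below all arrays of the other times, at a log2 change of -0.46 ± 0.36 over 0 h (limma adjusted p = 0.831), and at 6 h the change was 0.013 ± 0.36, which was -0.15 without experiment 2's 0 h array and -0.098 without experiment 1's 6 h array. On 1729_at the values were 40.8, 12.1 and 12.5 in experiment 2, and 132, 18.1 and 68.2 in experiment 1. The 6 h and 9 h arrays of experiment 2 were set to the floor, and the 6 h array of experiment 1 was near it. The change was -2.28 ± 0.88 at 6 h and -1.32 ± 0.88 at 9 h (limma adjusted p = 0.969 and 0.801), in part from values set to the floor. Within experiment 1, where no value was set to the floor, it was -2.87 at 6 h and -0.96 at 9 h. Leaving out 1 array at a time gave -3.12 to -1.43 at 6 h. The 9 h value was -0.11 without experiment 2's 9 h array. Probe set 213443_at was below the floor on all 6 arrays, at 2.08 to 6.53, and was not tested.

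CFLAR, the caspase-like inhibitor of the receptor complex, was read by 11 probe sets, 8 of them with the suffix x. On the brightest, 209939_x_at, the values at 0, 6 and 9 h were 226, 315 and 278 in experiment 2, and 132, 199 and 278 in experiment 1. Both 9 h arrays were above both 0 h arrays, and at 6 h the groups overlapped although each experiment lay above its own 0 h value. The log2 change was 0.54 ± 0.38 at 6 h, with an interval of -0.35 to 1.43, and 0.69 ± 0.38 at 9 h, with -0.20 to 1.58 (limma adjusted p = 0.969 and 0.742). In unscaled values these were -1.02 and 0.15.

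Over the 11 probe sets the log2 change at 6 h ran from 0.045 to 1.24 with a median of 0.50, and 9 of them were higher in both experiments. The 2 with the largest changes were also the dimmest: 214618_at read 14.8, 31.3 and 22.2 at 0, 6 and 9 h in experiment 2, and 11.2, 33.5 and 12.9 in experiment 1, and 217654_at read 11.1, 31.9 and 31.0 in experiment 2, and 25.8, 45.6 and 30.5 in experiment 1. Both had 1 of their 0 h arrays below the floor, so their changes of 1.24 ± 0.39 and 1.07 ± 0.48 at 6 h (adjusted p = 0.969 each) rest in part on a value set to the floor. At 9 h the 11 changes ran from 0.0021 to 0.99 with a median of 0.25, and 6 were higher in both experiments. The largest at that time, 210564_x_at, read 66.1, 104 and 199 in experiment 2, and 67.1, 90.6 and 87.2 in experiment 1, so its change of 0.99 ± 0.47 was 0.39 without experiment 2's 9 h array. By contrast 211862_x_at read 72.1, 64.6 and 70.3 in experiment 2, and 71.2, 84.7 and 76.9 in experiment 1, with changes of 0.045 at 6 h and 0.037 at 9 h. The probe sets of this gene thus did not follow 1 course. Leaving out 1 array turned the sign of 3 of the 11 at 6 h and 7 at 9 h, and in unscaled values 1 was above 0 at 6 h (214618_at, at 0.066) and 3 at 9 h.

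**Figure D2:**
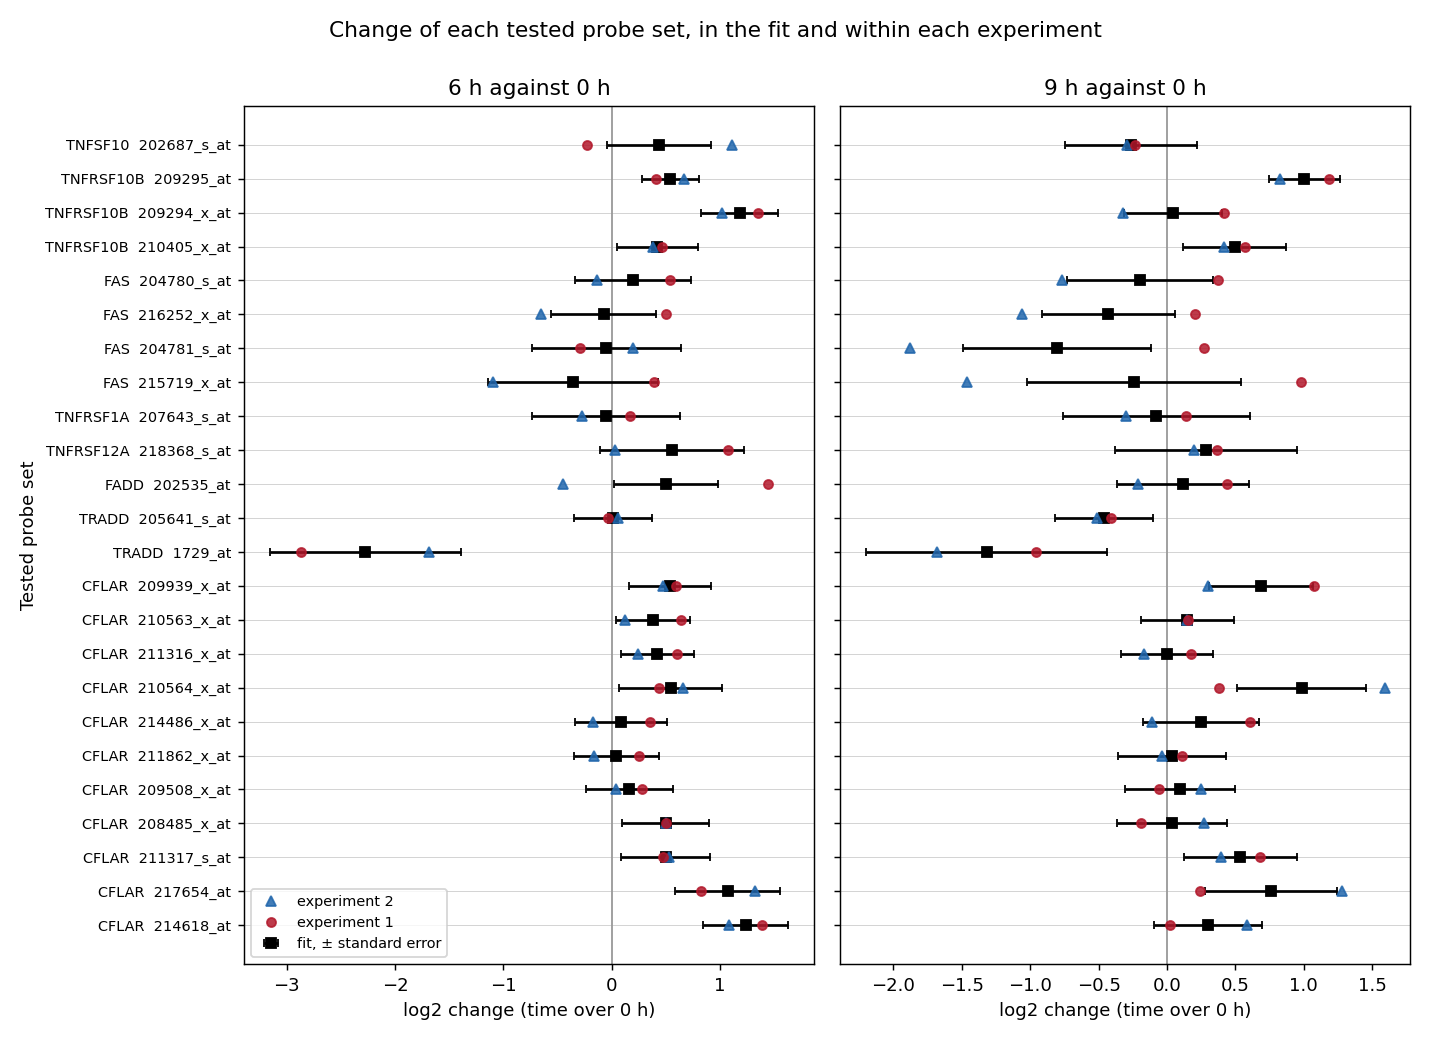
Log2 change of the 24 tested probe sets at 6 h and at 9 h over 0 h: squares are the fit with its standard error (2 arrays per group), triangles experiment 2 and circles experiment 1. TNFRSF10B and CFLAR lie to the right at 6 h (unscaled, 0 of 3 and 1 of 11 do), 1729_at of TRADD lies far to the left, and the experiments part for FAS at 9 h.

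Around these genes, other parts of the pathway were read as 5 lists of genes, each gene by its brightest tested probe set. No gene of any list passed by limma at 6 h, 9 h or between them, where 0 of all 10444 genes did. At an unadjusted limma p under 0.05 the 62 tested list genes held 4 higher and 0 lower at 6 h (2.38% and 1.84% of all genes), 3 higher and 1 lower at 9 h (4.70% and 3.21%), and 1 higher and 3 lower for 9 h against 6 h (2.52% each). In both experiments 26 were higher and 12 lower at 6 h (26.9% and 24.96% of all genes), and 25 higher and 13 lower at 9 h (28.0% and 29.5%). Among 5 of 10 listed ligands that were tested the median change was 0.25 at 6 h and -0.020 at 9 h. TNF was at 0.47 ± 0.59 at 9 h and the FAS ligand gene FASLG at -0.79 ± 0.44. The other receptors of the family (15 of 19 tested) had medians of -0.15 and -0.23, with TNFRSF10D, a decoy TRAIL receptor, at 0.64 ± 0.43 at 6 h and 0.15 ± 0.43 at 9 h. The other decoy, TNFRSF10C, named here after its values were seen, was at 1.17 ± 0.39 and 0.24 ± 0.39 (limma adjusted p = 0.969 and 0.933). Within experiment 2 it was at 1.32 and -0.083, and within experiment 1 at 1.02 and 0.55. CD40, a co-stimulatory receptor, was at 0.32 ± 0.36 at 9 h, the lymphotoxin receptor LTBR at -0.71 ± 0.40 and EDAR, the ectodysplasin receptor, at -0.69 ± 0.47.

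The list of TRAF and IAP proteins, which also holds DIABLO and HTRA2, had medians of 0.29 at 6 h and 0.18 at 9 h over 10 of 12 genes. BIRC2, an inhibitor of apoptosis that ubiquitinates RIPK1, was at 1.22 ± 0.38 at 9 h and the adaptor TRAF1, a known NF-kB target, at 1.36 ± 0.82 (limma adjusted p = 0.596 and 0.769). HTRA2, a mitochondrial protease that can bind IAP proteins, was at -0.94 ± 0.50 and the adaptor TRAF5 at -0.61 ± 0.45. Caspases and other genes downstream of the complex had medians of 0.077 and 0.27 over 15 of 19 genes, with DEDD, a protein with a death effector domain, at 0.79 ± 0.41 and RIPK2, a kinase of NOD receptor signalling, at 0.59 ± 0.40 at 9 h. CASP8, the initiator caspase that FADD recruits, named here after its values were seen, was at -0.13 ± 0.35 at 6 h and 0.40 ± 0.35 at 9 h. Signalling and ubiquitin genes had medians of 0.16 and 0.28 over 17 of 21. TNFAIP3, the ubiquitin-editing brake on NF-kB, was at 2.38 ± 0.53 at 9 h, by 3.33 in experiment 1 and 1.42 in experiment 2. It was the 1 gene of the lists to pass with the experiment as a term (limma adjusted p = 0.0452, against 0.543 without). In that fit 43 of the 10444 genes passed higher and 4 lower. With the lot line of the labels as the block in place of the experiment, 0 list genes passed at 9 h. The deubiquitinase CYLD was at 1.30 ± 0.74, IKBKG, a subunit of the IkB kinase, at -0.97 ± 0.34, and the stress kinase MAP3K5 at -0.78 ± 0.71.

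**Figure D3:**
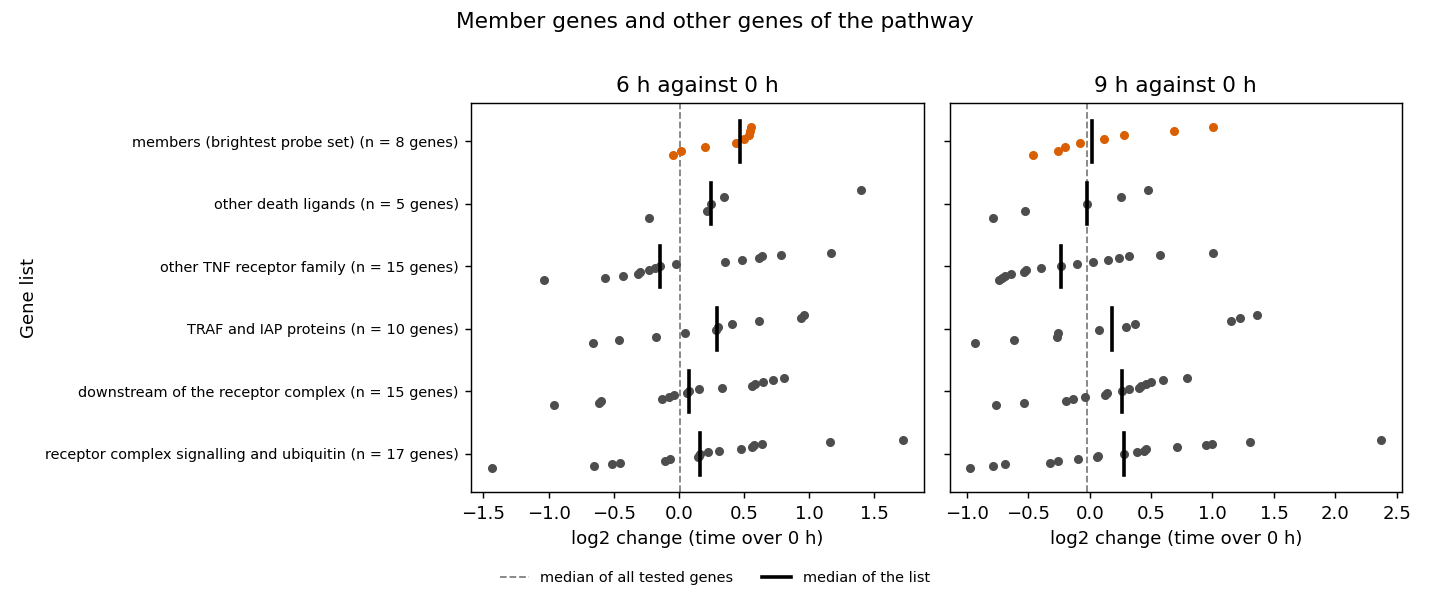
Log2 change at 6 h and at 9 h over 0 h for the 8 measured member genes and the 5 lists of other pathway genes, each point a gene, thick bars the list medians and the dashed line the median of all 10444 tested genes. The member median is 0.47 at 6 h and 0.019 at 9 h, and the point farthest to the right at 9 h is TNFAIP3 at 2.38.

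Likeness of course over the 6 arrays was described for the brightest probe sets that were above the floor on all arrays. The genes nearest to TNFRSF10B were JUNB, a subunit of AP-1, and ICE1 (Pearson r = 0.989 each over 6 arrays), to FAS SNX4 and FBXO42 (0.998 and 0.988), and to TNFRSF1A MGP and CISD1 (0.997 and 0.995). TNFRSF12A was nearest to CYREN and GOLGA3 (0.994 and 0.993), FADD to SCN2B and GLI1 (0.986 and 0.983), TRADD to TMEM120B and CDS2 (0.986 and 0.977), and CFLAR to UMPS and FERMT2 (0.986 and 0.983). Between 91 and 293 of 10436 genes had an r above 0.9 with each of these, and the points share arrays, normalisation and the 2 experiments.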

How the data were processed

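RNA of HOXA5-inducible Hs578T cells was measured on Affymetrix arrays at 0 h, 6 h and 9 h in 2 experiments (6 arrays). The values deposited by the authors are 1 linear intensity per probe set and array, with no scaling between arrays: their trimmed means differ 5.49-fold. The sources used here do not give the software behind them. Names come from the platform's probe table (19071 with 1 symbol, 1043 with several, 2169 unnamed), symbols being updated through Entrez numbers. Quantile normalisation was followed by a floor at the 25th percentile (12.7) and log2; 68 control probe sets were left out, and 18360 with at least 2 arrays above the floor were tested. Changes were fitted over all 6 arrays by limma (lmFit, eBayes with trend; version 3.58.1, R 4.3.3), adjusted by Benjamini-Hochberg over all tested probe sets at 0.05, two-sided, with 3 residual degrees of freedom. Errors after ± are standard errors from it. Groups came from the titles. Arrays of 1 experiment were taken to share an RNA batch, as the labels describe, although the lot line of experiment 2's 6 h array names experiment 1. Deviations from the group means correlated at 0.247, 0.336 and 0.391 between arrays of the same experiment. The fit with the experiment as a replicate block (2 residual degrees of freedom) is an alternative, as is a fit with the lot line as the block. Members, gene lists, motifs and tests were chosen with earlier results of these data known. Named list genes are those past the threshold in either fit and the 2 largest rises and falls at 9 h, of 1 direction in both experiments and above the floor on all arrays. Likeness is Pearson's r with the brightest probe set of a member, the 2 highest genes being named. Upstream sequences are RefSeq's (GRCh38.p14); 250 bases per start were searched.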

Additional observations from a re-analysis of the deposited data

Results flagged for a closer look

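For 4 genes the difference from 0 h had opposite signs in the 2 experiments, the same way round on every tested probe set. There is 1 array per time and experiment, so these differences were not tested. FADD, TNFSF10 and TNFRSF1A have 1 tested probe set each, and FAS has 4. Among all 10444 genes both experiments lay higher in 26.9% and lower in 24.96% at 6 h, and in 28.0% and 29.5% at 9 h. Many other genes thus did not move 1 way in both experiments either. FAS at 9 h differed from 0 h by -0.77 in experiment 2 and 0.37 in experiment 1 on its brightest of 4 probe sets, a difference of -1.14 on the log2 scale. At 6 h its experiments also had opposite signs on all 4 probe sets, but not the same way round. FADD differed from 0 h by -0.44 in experiment 2 and 1.45 in experiment 1 at 6 h (difference -1.89), and by -0.21 and 0.44 at 9 h (difference -0.65). TNFSF10 at 6 h differed from 0 h by 1.11 in experiment 2 and -0.23 in experiment 1 (difference 1.34), with the array of experiment 1 at the floor. For TNFRSF1A the values were -0.27 in experiment 2 and 0.17 in experiment 1 at 6 h (difference -0.44), and -0.30 and 0.14 at 9 h (difference -0.44).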

How the results depend on the processing

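Under the 15 alternatives to the fit, 0 of the tested member probe sets passed in any of the 3 time comparisons, and the replicate block changed no call of a member; it moved the number of pathway list genes called at 9 h to 1 (TNFAIP3). With the lot line as a block 0 pathway list genes were called at 9 h. The number of member probe sets higher moved with no scaling between arrays to 2 at 6 h, 5 at 9 h and 21 for 9 h against 6 h. Leaving out 1 array, which makes separation easier, gave 9 to 17 member probe sets wholly above 0 h and 1 to 7 wholly below at 6 h, 5 to 12 and 2 to 11 at 9 h, and 1 to 6 above and 6 to 12 below for 9 h against 6 h. With no scaling the following changes over 0 h turned sign at 6 h: TNFRSF12A -1.10, TNFRSF10B -1.08, CFLAR -1.02, FADD -1.02, FAS -1.28, TRADD -1.46 and TNFSF10 -0.26. At 9 h TNFRSF12A was at -0.36 and FADD at -0.42, and for 9 h against 6 h TNFRSF12A was at 0.74, TNFRSF1A 0.99, FADD 0.60, FAS 0.57 and TRADD 0.48. With the lot line as a block FAS was at -0.19 and TRADD at -0.17 at 6 h, and TNFRSF1A at 0.62 and CFLAR at -0.040 for 9 h against 6 h. With arrays scaled to one median TRADD was at -0.12 at 6 h, and TNFRSF1A at 0.0099 at 9 h and 0.24 for 9 h against 6 h. With the median over a gene's probe sets FAS was at -0.061 and TRADD at -1.13 at 6 h, and CFLAR at -0.070 and TRADD at 0.24 for 9 h against 6 h. Leaving out 1 array at a time gave, at 6 h, -0.31 to 1.42 for TNFRSF12A, -0.81 to 0.71 for TNFRSF1A, -0.22 to 1.22 for FADD, -0.24 to 0.64 for FAS, -0.15 to 0.17 for TRADD and -0.28 to 1.16 for TNFSF10. At 9 h it gave -0.58 to 1.14 for TNFRSF12A, -0.84 to 0.68 for TNFRSF1A, -0.11 to 0.34 for FADD and -0.87 to 0.48 for FAS. For 9 h against 6 h it gave -1.05 to 0.50 for TNFRSF12A, -0.79 to 0.73 for TNFRSF1A, -0.18 to 0.48 for CFLAR, -1.11 to 0.34 for FADD, -1.07 to 0.28 for FAS and -1.42 to 0.017 for TNFSF10. Apart from the unscaled values, TNFRSF10B kept its sign at 6 h (0.26 to 0.75), as did CFLAR (0.15 to 0.92). At 9 h TNFRSF10B (0.39 to 1.11), CFLAR (0.15 to 1.08) and TRADD (-0.99 to -0.25) kept theirs in all 16 alternatives. TNFSF10 (-0.85 to -0.13) kept its sign at 9 h in all 15 of its own. But for the median over probe sets, these are values of the brightest probe sets. The fits without 1 array hold no term for the experiment, so where the experiments differ, that difference enters the change. At 9 h 209294_x_at of TNFRSF10B was at -0.34 without experiment 1's 0 h array. Of the 2 probe sets called between experiments, 1 was left with arrays scaled to one median and 0 with no scaling, with no filter, with no intensity trend and without any 1 array. Other than from no scaling, where all probe sets shift, the cause of these moves was not tested. Signal near the floor limits TNFSF10, 1729_at and 214618_at.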
